A study of Mus musculus with 28 samples.

Results

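The comparison set the 3 arrays of *Pax1-/-Pax9+/-* cells, in which 3 of the 4 *Pax1* and *Pax9* alleles were lost, against the 6 arrays of wild-type (WT) cells. It covered 9 of the 28 arrays of the study, and was chosen by the genotype in the sample labels, with every gene on the array entered. All were EGFP(+) cells sorted from dissected vertebral columns of E12.5 mouse embryos of a hybrid 129Sv/C57BL/6/129X1/129S1 strain, and each replicate pooled cells of 2 vertebral columns. The WT embryos were *Pax1* WT:+/EGFP, in which EGFP follows a functional *Pax1* through a 2A peptide. In the mutants EGFP replaced the function of both *Pax1* alleles and of 1 *Pax9* allele, since the cassettes disrupt the paired box, so the sort gate drew on *Pax1* in WT and on *Pax1* and *Pax9* in the mutant. *Pax1-/-* and *Pax1-/-Pax9-/-* cells, with 8 and 3 arrays, served as neighbouring genotypes, and 3 arrays of EGFP(-) cells showed which genes mark other cells of the column.

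Pax1 and Pax9 are paired-box transcription factors of the sclerotome, the part of the somite that forms vertebrae, ribs and intervertebral discs. At this stage both are known from the condensing cells of the future disc. The paralogues are partly redundant, so a cell without *Pax1* still depends on *Pax9*. The contrast with WT holds the loss of both *Pax1* alleles and of 1 *Pax9* copy together. It cannot assign a change to the *Pax9* copy, so values of *Pax1-/-* cells are given below.

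Total RNA was measured on Illumina MouseWG-6 BeadChips, and all levels here are normalized log2 intensities, in which a difference of 1 is a doubling. The arrays lay on 5 chips. The 3 *Pax1-/-Pax9+/-* arrays and the 3 *Pax1-/-Pax9-/-* arrays shared chip 1, 2 WT arrays (replicates B5 and B7) and 3 *Pax1-/-* arrays lay on chip 2, and the other 4 WT arrays lay on chips 3, 4 and 5. No WT array lay on chip 1, so chip 1 and the mutant genotypes cannot be told apart. Between 43.0% and 43.7% of probes were detected on the *Pax1-/-Pax9+/-* arrays, 42.4% to 43.6% on the WT arrays of chip 2 and 46.2% to 48.2% on those of chips 3 to 5. Over the genes tested, the *Pax1-/-Pax9+/-* arrays correlated with the WT arrays of chip 2 at r of 0.967 to 0.972, and with those of chips 3 to 5 at 0.939 to 0.948. The WT arrays of chip 2 themselves correlated with the WT arrays of chips 3 to 5 at 0.932 to 0.950. The correlations are descriptive, across genes that are not independent. The main results are therefore given against all WT replicates and against the WT arrays of chip 2. WT replicate B5 was hybridised on chips 2 and 4 and counted once, which left 5 WT replicates. *Xist*, expressed from the inactive X chromosome of females, was at 4.49 and 4.41 in those 2 arrays, but at 4.52 and 8.82 in the *Pax1-/-* arrays of chips 2 and 3 that share the name B3, so the data do not bear out that those 2 are 1 sample. They were averaged as 1 replicate by name, and the counts are also given with the 2 kept apart. Nothing in the labels says which replicates came from separate litters. The p-values against all WT replicates measure the spread within genotypes, pooled over 21 EGFP(+) replicates of 5 genotypes. They do not hold the spread between chips for the mutant, whose 3 arrays share chip 1.

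The targeted genes were read first. *Pax1* was at 11.06, 11.13 and 11.06 in the *Pax1-/-Pax9+/-* arrays, at 11.57 and 11.53 in the WT arrays of chip 2, and between 11.03 and 11.15 in those of chips 3 to 5. The mutant arrays lay below both WT arrays of chip 2 and within the range of the others. Against all WT replicates the log2 difference was -0.15 ± 0.11 (SE; limma, adjusted p = 0.429), and against chip 2 it was -0.46 ± 0.12 (adjusted p = 0.371). *Pax9* was at 6.94, 6.61 and 6.58, and the 6 WT arrays ran from 6.01 through a median of 6.61 to 7.52, so the groups overlapped (log2 difference 0.09 ± 0.36, adjusted p = 0.913). Where the probes lie relative to the disrupted exons was not checked, so their signal is no measure of the number of functional copies. In EGFP(-) cells *Pax9* stood at 4.34 to 4.60. The *Pax1-/-Pax9-/-* arrays differed among themselves on *Pax9*, with 4.73 and 4.77 in 2 arrays and 6.85 in the library labelled replicate B1. Counts and tested steps that use this library are also given without it.

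Against all WT replicates 636 of 13373 genes (4.76%) passed an adjusted p under 0.05 with a change of at least 1.5-fold. Of these, 331 (2.48%) were higher and 305 (2.28%) lower in *Pax1-/-Pax9+/-*. Single replicates moved this count, from 1320 without WT B7 to 195 without mutant B3. With the *Pax1-/-* B3 arrays kept as 2 samples, an alternative chosen after seeing the data, 367 genes were called, all of them among the 636, and with each array as its own sample 187 were. With the WT and *Pax1-/-Pax9+/-* replicates alone in the fit, 4 genes were called. The largest rise was *Crh*, which encodes corticotropin-releasing hormone, and the largest fall was *Marchf11*, which encodes a membrane-bound ubiquitin ligase. *Crh* was detected on 3 of the 6 WT arrays and *Marchf11* on 1 of the 3 mutant arrays, so background limits both sizes. In 296 of the 636 called genes, or 46.5%, the 3 mutant arrays lay beyond all 6 WT arrays, against 7.01% of all genes tested. Above all 6 lay 160 of the 331 rises and below them 136 of the 305 falls, against 3.52% and 3.48% of all genes. Direction held against the WT arrays of chip 2 for 300 of the 331 rises and 289 of the 305 falls, but the sizes were smaller. The median rise was 0.88 against all WT replicates and 0.35 against chip 2, and the median fall was -0.77 and -0.32. Beyond both WT arrays of chip 2, on the side of the call, lay 173 rises and 143 falls, or 49.7% of the calls, against 26.2% of all genes on either side. At least 1.5-fold the same way against chip 2 were 93 rises and 63 falls, where 2.95% and 2.92% of all genes tested were that much higher and lower. The chip 2 comparison uses the same mutant arrays and 2 of the same WT arrays, so it is not independent of the first.

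**Figure D1:**
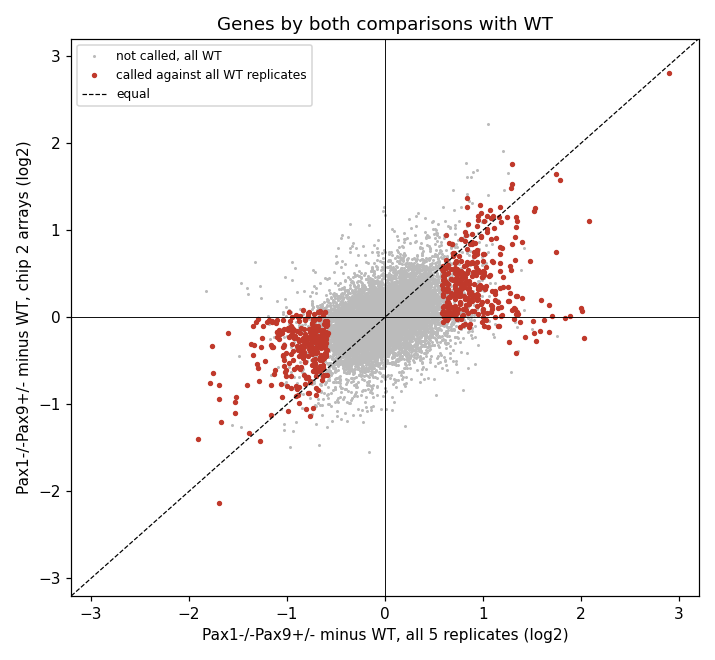
Each point is a gene, with the log2 difference of Pax1-/-Pax9+/- from all 5 WT replicates on the x axis and from the 2 WT arrays of chip 2 on the y axis; red points are the 636 called genes and the dashed line marks equal differences. Most called genes lie nearer to 0 on the y axis than on the x axis, with median rises of 0.88 and 0.35, while *Crh* lies on the line at the upper right.

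The WT cells alone moved between the chips. For the 331 rises the WT arrays of chip 2 differed from those of chips 3 to 5 by a median of 0.68, and for the 305 falls by a median of -0.67. The WT arrays enter both differences. *Pax1-/-* cells, which enter neither side of the contrast, differed between the same chips without that overlap, with medians of 0.48 for the rises and -0.29 for the falls, and the sign was that of the call in 293 of 331 and 278 of 305 genes. With the chip series (chips 1 and 2 against chips 3, 4 and 5) as a block 21 genes (0.157%) were called, 16 higher and 5 lower, and 20 of them were among the 636. With the chip as a random block 19 genes (0.142%) were called, 14 higher and 5 lower, all of them among the 636. On chips 1 and 2 alone 1 gene (0.00748%) was called, while 1066 genes (7.97%) had an unadjusted p under 0.05. That gene, *Cdyl2*, was at 5.06, 4.79 and 4.67 in the mutant and 6.29 and 6.32 in WT of chip 2 (log2 difference -1.47 ± 0.16, adjusted p = 0.0309), but its 4 other WT arrays, at 4.62 to 5.76, reached the mutant range. No mutant array detected *Cdyl2*, so the fall from WT of chip 2 is known only as at least 2.32-fold. Such bounds set the mean of the detected group against the higher of the measured level and the lowest level of any detected probe on each array of the other group.

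A set of 12 genes was called against all WT replicates and under both treatments of the chip, 10 higher and 2 lower. The rises were *Crh*, *Vwa5b2*, *Foxa1*, *Plekhd1*, *Gdf10*, *Myocd*, *Nlgn1*, *Cbln2*, *Lmx1b* and *Gpr162*, and the falls were *Klhl14* and *Dera*. *Myocd*, *Nlgn1*, *Cbln2*, *Lmx1b*, *Gpr162* and *Dera* were singled out after their values were seen. In each of the 12 the mutant arrays lay beyond all 6 WT arrays. *Vwa5b2* and *Lmx1b* were not above background on any WT array and *Dera* on no mutant array, so their sizes are bounds. All 12 were also called with the *Pax1-/-* B3 arrays kept apart.

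*Crh* stood at 7.87, 8.33 and 8.45 in *Pax1-/-Pax9+/-*, and the WT arrays ran from 4.46 through a median of 5.32 to 6.21. The groups were more than 1 log2 unit apart, and the spread among WT arrays, low in B3, B4 and 1 array of B5, was wide. It rose 7.44-fold (2.90 ± 0.37, adjusted p = 0.000716), and 7.00-fold against chip 2 (adjusted p = 0.0748). EGFP(-) cells had 4.36 to 5.62, not above the range of WT EGFP(+) cells.

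*Foxa1*, a forkhead factor that opens chromatin in endoderm and floor plate, was at 8.39, 7.75 and 8.03 against 6.20 to 7.03 in WT, with a median of 6.56. The highest WT array, B5 of chip 2, remained below the lowest mutant array. The rise was 2.87-fold (1.52 ± 0.17, adjusted p = 0.000196) and 2.33-fold against chip 2. *Gdf10*, which encodes the TGF-B family ligand also called BMP3b, was at 10.27, 9.86 and 10.04 against 8.62, 8.83 and 9.29 (lowest, median and highest WT array). It rose 2.26-fold (1.18 ± 0.19, adjusted p = 0.00346), with both WT arrays of chip 2 close to the WT median at 8.74 and 8.84.

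*Vwa5b2* encodes a protein with a von Willebrand factor A domain, and it was in WT at 4.51 to 4.93. The mutant arrays were at 6.75, 6.16 and 6.35 (adjusted p = 0.000196), at least 2.69-fold higher, and at least 2.48-fold against chip 2. *Plekhd1* was at 7.57, 7.45 and 7.26 against 4.94 to 6.09 (1.78 ± 0.28, adjusted p = 0.00320). *Myocd*, which encodes the smooth muscle coactivator myocardin, rose by 1.12 ± 0.16 (adjusted p = 0.00137; 1.03 against chip 2). Genes of synapse organisation among the 12 were the adhesion gene *Nlgn1* (0.94) and the secreted *Cbln2* (1.19). Their adjusted p-values were 0.00137 and 0.00270, and EGFP(-) cells held 8.13 to 9.06 and 7.28 to 7.79, ranges that overlap those of the mutant. The LIM-homeodomain gene *Lmx1b* (at least 1.42-fold) and the orphan receptor gene *Gpr162* (log2 difference 1.33) rose from WT arrays that reached at most 4.88 and 5.50.

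*Klhl14*, a Kelch-like gene, was at 6.00, 6.98 and 6.95 in the mutant and at 7.67, 8.42 and 8.96 in WT (lowest, median, highest). Mutant replicate B1 was about 1 log2 unit below the other two, and all 3 were below every WT array. The fall was 3.24-fold (-1.69 ± 0.22, adjusted p = 0.000821) and 4.40-fold against chip 2. EGFP(-) cells held 8.09 to 8.67, within the WT range. *Dera*, which encodes deoxyribose-phosphate aldolase, was at 4.89, 4.95 and 4.95 against 5.62 to 6.23 (adjusted p = 0.00270), at least 1.86-fold lower.

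**Figure D2:**
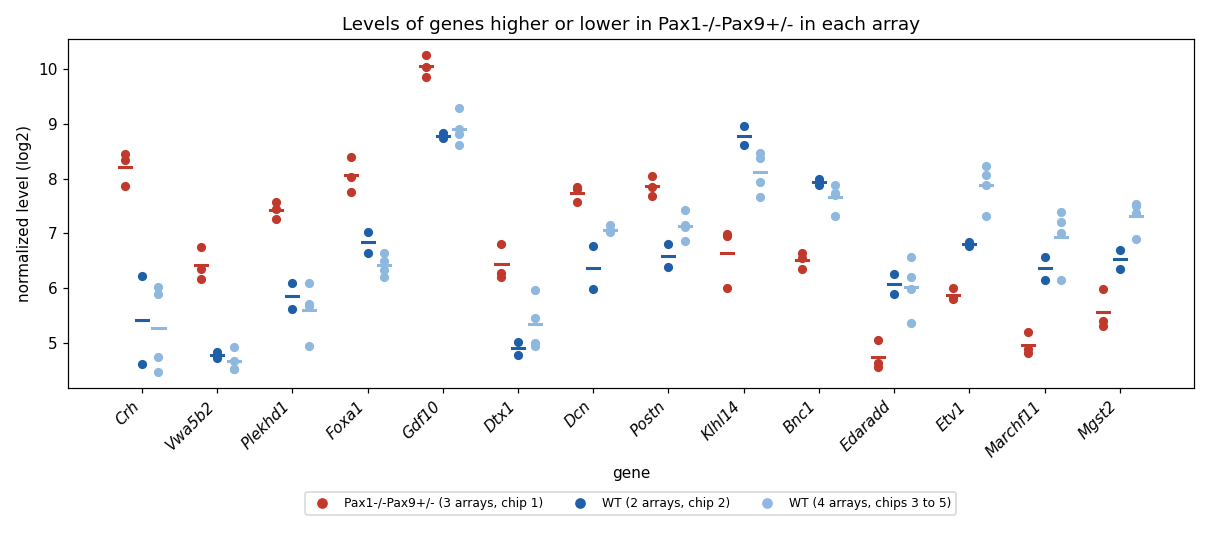
Each point is 1 array, with the normalized log2 level on the y axis and the gene on the x axis; bars are means of 3 Pax1-/-Pax9+/- arrays (red), 2 WT arrays of chip 2 (dark blue) and 4 WT arrays of chips 3 to 5 (light blue). In each gene the red points clear both blue groups, by the most in *Crh*.

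Among rises that separated from all 6 WT arrays and kept their sign against chip 2, the 15 of largest size spanned 2.15-fold to 7.44-fold, with adjusted p from 0.000196 to 0.0483. They held a Notch pathway ubiquitin ligase (*Dtx1*, 1.30), a glucose transporter (*Slc2a12*, 1.29), the first enzyme of creatine synthesis (*Gatm*, 1.28) and the neuropeptide Y receptor gene *Npy2r* (1.53). *Col16a1*, which encodes a fibril-associated collagen, rose by 1.35, *Naglu*, a lysosomal enzyme gene of heparan sulfate breakdown, by 1.10, and *Tfec*, a MiT-family factor, by 2.08. *H2bu2* (1.34), *Gm9947* (1.17) and *Robo4* (1.25), an endothelial guidance receptor, completed the group with the 5 given above. *H2bu2* and *Gm9947* were each detected on 2 of the 6 WT arrays, and *Npy2r* and *Naglu* on 3, so background limits these sizes. In *Tfec* the WT arrays of chip 2, at 6.95 and 6.11, were above those of chips 3 to 5, at 4.72 to 5.90, and the difference from chip 2 was 1.11. EGFP(-) cells reached the mutant range in *Gatm* (6.77 to 9.37), *Robo4* (6.25 to 7.20) and *Tfec* (5.91 to 8.42). They also did in *Slc2a12* (5.93 to 7.33) and *H2bu2* (5.51 to 6.09). In the rest of the 15 rises EGFP(-) cells lay below the mutant arrays.

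With the chip as a random block 7 of these 15 rises kept the call, with the series block 6 did, and on chips 1 and 2 alone *Crh* had the smallest adjusted p, 0.0748. *Slc2a12*, *Gatm* and *Robo4* lost the call with the *Pax1-/-* B3 arrays kept apart, at adjusted p of 0.0618, 0.0537 and 0.0583.

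The 15 falls spanned 1.84-fold to 3.74-fold, with adjusted p from 0.000821 to 0.0437. *Marchf11* was at 4.80, 5.19 and 4.88 in the mutant against 6.14 to 7.40 (-1.90 ± 0.34, adjusted p = 0.00505; -1.40 against chip 2). Only 1 of the 3 mutant arrays detected *Marchf11*, the largest of these falls, so its size is limited by background. *Etv1*, an ETS factor that responds to FGF signalling, was at 5.79, 5.82 and 6.00 against 6.77 and 6.84 on chip 2 and 7.32 to 8.24 on chips 3 to 5. The mutant was below both WT sets, but the difference was -1.69 ± 0.28 against all WT replicates (adjusted p = 0.00365) and -0.94 against chip 2. *Edaradd*, the adaptor of the ectodysplasin receptor, was at 5.04, 4.62 and 4.56 against 5.36 to 6.57 (-1.38 ± 0.25, adjusted p = 0.00537). Background limits the size for *Edaradd* too, which 1 of the 3 mutant arrays detected. *Bnc1*, the basonuclin zinc-finger gene, was at 6.54, 6.65 and 6.35 against 7.31 to 7.99 (-1.27 ± 0.25, adjusted p = 0.00889), and both kept their size against chip 2, at -1.33 and -1.42. Both were called with the series block but not with the chip as a random block (adjusted p = 0.0787 and 0.0757) or on chips 1 and 2 alone (adjusted p = 0.259 and 0.342). Of the 15 falls 4 kept the call with the series block, and with the random block 1 did, *Klhl14*. The SRF partner gene *Elk1* (at least 2.75-fold lower) and *AY074887* (at least 1.43-fold lower) were not above background on any mutant array, and both lost the call with the *Pax1-/-* B3 arrays kept apart (adjusted p = 0.0514 and 0.104). The glutathione transferase gene *Mgst2* (-1.52), the emerin gene *Emd* (-0.88), the RNA decapping nuclease gene *Dxo* (-0.91), *Drg2* (-0.96), *Prag1* (-0.88), *Wdr83os* (-0.90), *1190007I07Rik* (-0.98) and *4930426D05Rik* (-1.53) made up the rest with *Klhl14*.

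For the sequence context of genes whose levels separated here, promoters of 250 bases before to 50 bases after the start were read from RefSeq (GRCm38.p6). The letters CGTGAC, a core of the site that paired domains bind, were searched on both strands, with matches in capitals. They occurred in 8.22% of 32851 promoters, in 12.3% of 13633 promoters of the genes tested, in 10.5% of 323 promoters of rises and in 12.2% of 312 of falls. Shown are 2 rises that also held with the chip blocked, 1 rise with 2 matches, 1 fall and *Pax1*; *Crh* and *Klhl14* are named only.
*Foxa1*, chr12:57546062-57546361, minus strand: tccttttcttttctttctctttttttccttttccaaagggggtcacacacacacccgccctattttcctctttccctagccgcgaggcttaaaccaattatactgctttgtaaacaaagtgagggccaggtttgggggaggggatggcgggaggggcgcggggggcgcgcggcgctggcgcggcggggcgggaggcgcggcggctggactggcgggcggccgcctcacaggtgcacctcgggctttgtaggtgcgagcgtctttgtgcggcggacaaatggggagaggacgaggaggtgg
*Gdf10*, chr14:33923337-33923636, plus strand: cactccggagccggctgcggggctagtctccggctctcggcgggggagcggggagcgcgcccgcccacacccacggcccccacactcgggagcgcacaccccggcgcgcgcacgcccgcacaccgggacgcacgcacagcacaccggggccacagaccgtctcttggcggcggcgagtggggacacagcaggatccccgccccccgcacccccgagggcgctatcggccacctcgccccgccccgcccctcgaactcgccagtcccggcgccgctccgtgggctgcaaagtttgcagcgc
*Naglu*, chr11:101069844-101070143, plus strand: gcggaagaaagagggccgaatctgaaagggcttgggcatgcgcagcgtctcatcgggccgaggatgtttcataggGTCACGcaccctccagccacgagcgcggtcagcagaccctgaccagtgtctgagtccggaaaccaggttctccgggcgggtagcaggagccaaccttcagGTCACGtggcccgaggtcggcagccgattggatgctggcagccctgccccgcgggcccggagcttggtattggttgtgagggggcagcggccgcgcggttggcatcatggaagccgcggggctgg
*Bnc1*, chr7:81992250-81992549, minus strand: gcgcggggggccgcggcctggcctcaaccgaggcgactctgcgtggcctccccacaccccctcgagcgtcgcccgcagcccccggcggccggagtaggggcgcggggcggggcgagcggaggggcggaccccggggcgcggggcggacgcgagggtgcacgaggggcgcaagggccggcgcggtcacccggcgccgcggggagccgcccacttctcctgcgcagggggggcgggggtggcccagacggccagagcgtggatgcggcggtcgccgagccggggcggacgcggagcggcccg
*Pax1*, chr2:147364744-147365043, plus strand: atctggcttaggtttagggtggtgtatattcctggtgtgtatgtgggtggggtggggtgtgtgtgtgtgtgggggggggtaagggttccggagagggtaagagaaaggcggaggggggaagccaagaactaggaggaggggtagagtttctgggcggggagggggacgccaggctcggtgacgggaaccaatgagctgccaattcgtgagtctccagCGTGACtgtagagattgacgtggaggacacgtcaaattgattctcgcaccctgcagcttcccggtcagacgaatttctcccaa
No capital letters stand in *Foxa1*, *Gdf10* or *Bnc1*, and *Pax1* holds 1 match. A match describes the letters alone and names no binding site.

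Gene groups were read by their counts and medians beside all genes tested, whose median was -0.01 against all WT replicates and -0.01 against chip 2. Of 29 small leucine-rich proteoglycans and other fibril-surface genes 5 rose (17.2%, background 2.48%), with a group median of 0.14, or 0.30 against chip 2. Decorin (*Dcn*), which coats collagen fibrils, was at 7.84, 7.82 and 7.57 against 5.97, 7.03 and 7.15 (0.84 ± 0.16, adjusted p = 0.00864; 1.37 against chip 2). Periostin (*Postn*), a matricellular protein of collagen assembly, was at 7.85, 8.05 and 7.68 against 6.38, 6.98 and 7.43 (0.84 ± 0.18, adjusted p = 0.0129; 1.27 against chip 2). In both genes the WT arrays of chip 2 were below those of chips 3 to 5, so the difference grew on the same chip series, and both were called with the series block. With the chip as a random block neither was called (adjusted p = 0.0942 and 0.0781), nor was either on chips 1 and 2 alone (adjusted p = 0.185 and 0.139). Of the 29 genes 2 were called with the series block and 0 with the random block by limma, with 15 at an unadjusted p under 0.05 against all WT replicates and 9 on chips 1 and 2. *Thbs2*, the gene of thrombospondin 2, rose by 0.94 and *Ccn1* by 0.69, with 0.72 and 0.26 against chip 2. *Ccn1* also stands in the list of genes that respond early to cell dissociation, of which 4 of 29 rose (13.8%, background 2.48%). The others were the AP-1 genes *Fos* (1.29 and 0.85 against chip 2), *Jund* (0.97 and 0.52) and *Fosb*, with means of 7.63 in the mutant and 5.64 in WT and a difference from chip 2 of 0.11. The median of that list was 0.06 against both WT sets, and its part in the other differences was not tested. In 15 of the 29 fibril-surface genes the 3 mutant arrays lay above both WT arrays of chip 2, where 12.6% of all genes did. Macrophage markers were also higher against chip 2 and are given with the other cell types.

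Among 21 cartilage collagens and matrix genes 2 rose (9.52%, background 2.48%), with a median of 0.05 (0.03 against chip 2). *Matn2* and *Matn4*, which encode matrilins that link matrix filaments, were the members called, at 0.63 and 0.93. The aggrecan gene *Acan* was at 7.00, 6.98 and 6.99 in the mutant and 5.86 to 7.60 in WT, and it did not pass the test (0.24 ± 0.32, adjusted p = 0.709). The sign turned against chip 2, where WT stood at 7.20 and 7.60 and the difference was -0.40 (adjusted p = 0.550). *Col2a1*, the main cartilage collagen gene, was at 10.43, 10.15 and 10.12 against 10.34 to 10.92 (-0.27 ± 0.14, adjusted p = 0.279). *Sox5* (-0.10, adjusted p = 0.710), *Sox9* (0.24, adjusted p = 0.657), the ubiquitin ligase gene *Wwp2* (-0.54, adjusted p = 0.100) and *Col11a1* (-0.40, adjusted p = 0.119) did not pass. *Sox9* also changed sign against chip 2, to -0.47. Of the 20 sclerotome and disc genes *Foxc1* rose (1.13) and *Tcf15* fell (-1.30), each by less against chip 2 (0.30 and -0.58). Each was 5% of the list (background 2.48% higher and 2.28% lower).

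Of 70 oxidative phosphorylation genes 15 fell (21.4%, background 2.28%), with a median of -0.26. The subunit genes *Uqcr11* (-1.04), *Atp5b* (-0.71), *Atp5d* (-1.11) and *Ndufb7* (-1.35) had the smallest adjusted p, from 0.00491 to 0.00961. Against chip 2 the median was -0.13, and 52 of the 70 were lower, where 6885 of all 13373 genes were. The 15 called genes ran from -0.44 to -0.03 there. In the same 15 the difference of chip 2 from chips 3 to 5 was -1.81 to -0.55 in WT and -0.98 to -0.06 in *Pax1-/-* arrays. Cytosolic ribosomal protein genes moved the same way, with 6 of 58 falling (10.3%, background 2.28%) and medians of -0.17 and -0.10. *Rpl35* was at 10.03, 9.83 and 9.86 in the mutant, at 10.11 and 10.05 in WT of chip 2, and at 11.26 to 11.54 in WT of chips 3 to 5, so the mutant lay beside the chip 2 arrays. The corresponding differences were -1.10 (adjusted p = 0.0110) and -0.17 (adjusted p = 0.944).

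The same split was plain in genes of other groups. *Scx*, the tendon factor scleraxis, was called at 1.19 and stood at 10.15, 10.10 and 10.28 against 10.27 and 10.06 on chip 2, a difference of 0.01. The hedgehog kinesin gene *Kif7* (1.08 and 0.06), the Wnt antagonist genes *Sfrp5* (1.34 and 0.04) and *Wif1* (0.90 and 0.08), and *Igf2* (-0.63 and 0.03) gave the first value against all WT replicates and the second against chip 2. Chromatin and acetylation genes had 4 falls (8.51%, background 2.28%) and 1 rise (2.13%, background 2.48%) of 47. Their median of -0.14 was 0.04 against chip 2. The histone acetyltransferase genes *Ep300* (-0.76 and -0.32) and *Crebbp* (-0.98 and 0.06), *Phf20* (-0.74 and -0.09) and *Setd5* (0.89 and 0.07) had smaller differences there, while *Cbx2*, a Polycomb gene, kept -0.63 of -1.02. *Scx*, *Kif7*, *Sfrp5*, *Wif1*, *Igf2*, *Ep300*, *Crebbp*, *Phf20* and *Setd5*, and *Ptch1*, *Tcf15*, *Cdc20*, *Zic5* and *Mitf* of other lists, lost the call with the *Pax1-/-* B3 arrays kept apart. Changes of this kind cannot be told apart from the chip series here.

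**Figure D3:**
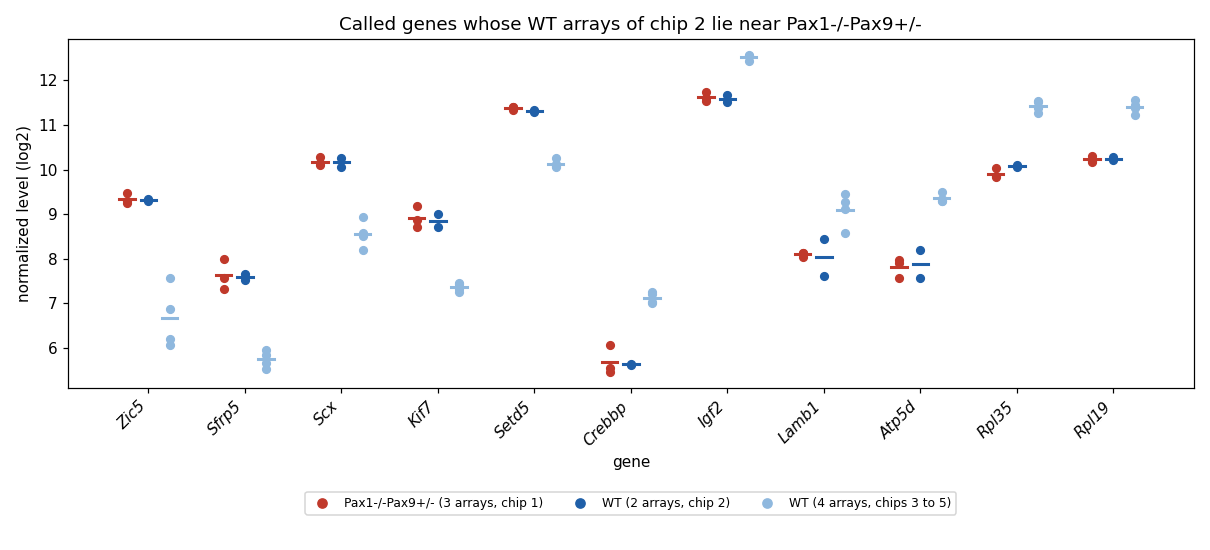
Each point is 1 array, with the normalized log2 level on the y axis, the gene on the x axis and the groups coloured as Pax1-/-Pax9+/- (red), WT of chip 2 (dark blue) and WT of chips 3 to 5 (light blue); bars are group means. All 11 genes were called against all WT replicates, and in each the chip 2 WT arrays lie near the mutant arrays, as in *Rpl35* and *Scx*.

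Signalling lists had few calls, set here beside 2.48% of all genes that rose and 2.28% that fell. *Bmp4*, a ligand of cartilage induction, fell by 1.58-fold (-0.66 ± 0.13, adjusted p = 0.00889), with the mutant at 6.52, 6.74 and 6.55, the WT arrays of chip 2 at 6.86 and 6.98 and the others at 7.18 to 7.58. All mutant arrays were below all WT arrays, and the difference from chip 2 was -0.31 (adjusted p = 0.711). With *Gdf10* it made 2 calls among 23 BMP genes. Of 15 hedgehog genes 2 rose (13.3%), *Kif7* and the receptor gene *Ptch1* (0.59, 0.43 against chip 2). Of 36 Wnt genes 3 rose (8.33%), *Sfrp5*, *Wif1* and the R-spondin gene *Rspo2* (0.85 and 0.54). The osteoblast factor *Dlx5* rose by 0.95, with 1.17 against chip 2, and was 1 of 10 osteogenic genes called. Of 17 FGF genes *Etv1* and *Etv4* fell (11.8%), *Etv4* by at least 1.26-fold since no mutant array detected it, with a difference of -0.01 from chip 2. By limma 0 of 34 Hox genes were called, with 6 at an unadjusted p under 0.05, and 0 of 19 TGF-B genes, with 9 at an unadjusted p under 0.05. Among 54 cell cycle genes *Mcm3* (-0.84) and *Cdc20* (-0.74) fell and 1 rose, with medians of -0.13 and -0.17 and 38 of 54 lower than WT of chip 2, where 6885 of all 13373 genes were.

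**Figure D4:**
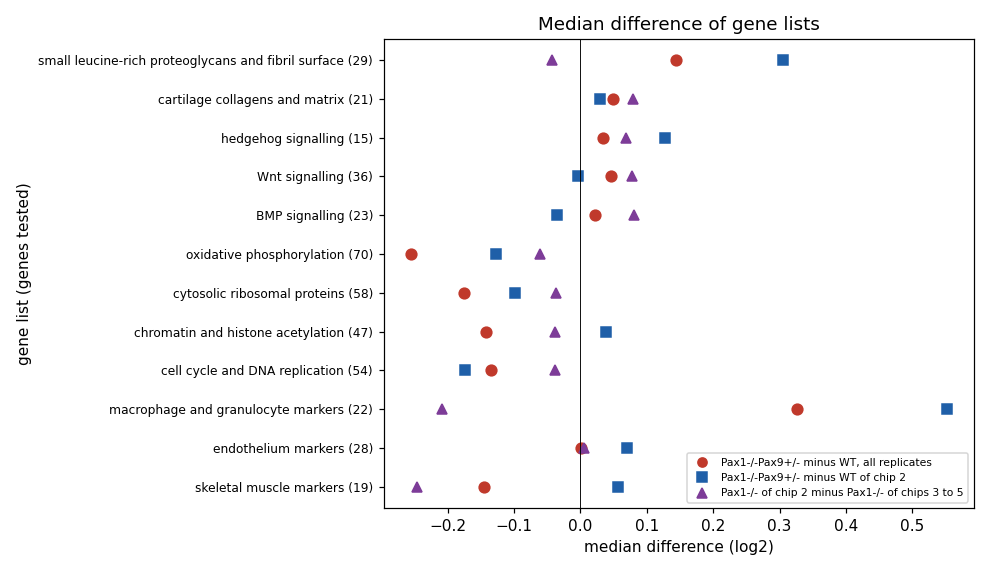
Each row is a gene list with its number of genes tested; the x axis is the median log2 difference of its members from all WT replicates (circles), from the WT arrays of chip 2 (squares), and between Pax1-/- arrays of chip 2 and of chips 3 to 5 (triangles). Oxidative phosphorylation moves from -0.26 to -0.13, fibril-surface genes from 0.14 to 0.30, and the macrophage list from 0.33 to 0.55.

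Markers of other cells were read for the whole of each list, since a sorted fraction can carry them, and fewer cells of a type cannot be told apart from less RNA per cell. By limma 0 of 22 macrophage and granulocyte markers were called and 4 had an unadjusted p under 0.05, and 21 of 22 were higher than in WT of chip 2, with a median of 0.55 (0.33 against all WT). The mean level of that list was 4.97 to 5.85 in the mutant arrays, 4.63 to 5.10 and 4.70 to 5.46 in the WT arrays of chip 2 and of chips 3 to 5, and 7.86 to 8.57 in EGFP(-) cells. Replicate B1 lay below B2 and B3 in 17 of the 22 markers. On chips 1 and 2, 7 of the 22 had an unadjusted p under 0.05, against 7.97% of all genes, and *Laptm5* (2.22), *Mrc1* (1.61) and *Fcer1g* (1.41) were among the largest differences from WT of chip 2. Of the 22 markers 9 were detected in all 3 mutant arrays, *Laptm5*, *Mrc1*, *C1qa* and *Lyz2* among them, 6 in 2 arrays, *Csf1r* and *Adgre1* among them, 1 in 1 array, and 6 in none, which were *Ptprc*, *S100a8*, *S100a9*, *Ngp*, *Mpo* and *Tyrobp*. Erythroid markers had 0 calls of 15 by limma, with 0 at an unadjusted p under 0.05, and means of 5.38 to 6.64, 4.90 to 6.08 and 5.14 to 6.70 in the same 3 sets, against 9.27 to 9.48 in EGFP(-) cells. Among skeletal muscle (19) and neuronal (28) markers there were 0 calls by limma, with 5 and 2 at an unadjusted p under 0.05, and their mutant means of 5.40 to 5.59 and 5.69 to 5.94 lay below EGFP(-) cells at 6.48 to 6.92 and 7.67 to 7.95. *Robo4* was the 1 endothelial marker called of 28 (3.57%, background 2.48%), and 9 of the 28 were undetected in the mutant. Neural progenitor markers had 3 rises of 16 (18.8%, background 2.48%), among them *Zic2* (1.35) and *Zic5* (1.89), which differed by 0.24 and 0.02 from chip 2. *Mitf* (0.92, 0.72 against chip 2) was the 1 neural crest and glial marker called of 10 (10%). *Foxa1* was the 1 rise of 13 notochord and epithelial markers, with EGFP(-) cells at 4.34 to 6.14, below the mutant. *Krt18* of the same list fell by at least 1.15-fold (adjusted p = 0.0345), since no mutant array detected it. Each was 7.69% of the list (background 2.48% higher and 2.28% lower). The list median was -0.22 against all WT replicates and -0.04 against chip 2. Of 8 kidney and intermediate mesoderm markers 2 fell (25%, background 2.28%), *Osr2* and *Emx2*, and 5 had an unadjusted p under 0.05 by limma. The 2 falls were -1.10 and -0.76 against all WT replicates, and -1.14 and -0.22 against chip 2, not matched by gene. Neither was called with either chip block. The list median was -0.11, or -0.04 against chip 2, and 3 of the 8 were undetected in the mutant. The part of other cells in the gene differences was not tested.

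The neighbouring genotypes give the steps before and after. On chip 1 itself 42 genes (0.314%) were called between *Pax1-/-Pax9-/-* and *Pax1-/-Pax9+/-*, 17 higher and 25 lower. Of the 42, 9 were among the 636, which make up 4.76% of all genes. Both comparisons hold the same *Pax1-/-Pax9+/-* arrays, so this overlap is not independent. Without the library labelled *Pax1-/-Pax9-/-* replicate B1, an alternative chosen after seeing the data, 55 genes were called, 31 of them shared with the 42. *Pax9* itself differed by -1.26 at this step with that library (limma, adjusted p = 0.244). Without it the difference was -1.96, but that library was left out for its *Pax9* level, so this value is no test of *Pax9*. Against *Pax1-/-*, with 5 of its 8 arrays on chips 3 to 5, 1086 genes (8.12%) were called, and *Pax1-/-* against WT gave 30 (0.224%). With the *Pax1-/-* B3 arrays kept apart the 3 counts were 39, 743 and 26. These comparisons share arrays. *Crh* was at 7.18 to 7.71 in *Pax1-/-* of chip 2, above both WT arrays of that chip, then 7.87 to 8.45 and 9.09 to 9.18 in the *Pax1-/-Pax9+/-* libraries and those labelled *Pax1-/-Pax9-/-*. The rise from WT to *Pax1-/-* was called, with replicate means of 5.32 and 7.32 (adjusted p = 0.00934). The next steps did not pass, at 0.90 (adjusted p = 0.122) and 0.92 (adjusted p = 0.545), the last being 0.92 without B1 (adjusted p = 0.599). *Gdf10* stood at 9.64 to 9.89, 9.86 to 10.27 and 9.81 to 10.36, and each range overlapped with the next. Neither step passed, at 0.42 from *Pax1-/-* to *Pax1-/-Pax9+/-* (adjusted p = 0.166) and -0.14 for the last step without B1 (adjusted p = 0.958). *Klhl14* lay between 7.59 and 8.24 in *Pax1-/-* of chip 2, between 6.00 and 6.98 in *Pax1-/-Pax9+/-* and between 4.46 and 4.90 in the libraries labelled *Pax1-/-Pax9-/-*, with no overlap and a last step of -1.93 (adjusted p = 0.000389). *4930426D05Rik*, a transcript with a clone name only, lay between 8.13 and 8.52 in *Pax1-/-Pax9+/-* and fell to between 4.68 and 6.47 in the libraries labelled *Pax1-/-Pax9-/-* (log2 step -3.00, adjusted p = 0.000208).

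*Foxa1* and *Vwa5b2* were highest in *Pax1-/-Pax9+/-*. *Foxa1* was already higher in *Pax1-/-* than in WT (0.76 by limma, adjusted p = 0.0330), with 6.91 to 7.49 on chip 2. Its mean in *Pax1+/-*, a further genotype of the study, was 7.48, against 6.54 in WT. The step from *Pax1-/-* to *Pax1-/-Pax9+/-* was 0.76 (adjusted p = 0.00807). *Vwa5b2* was at 5.06 to 5.65 in *Pax1-/-* of chip 2, and its difference from WT did not pass (0.20, adjusted p = 0.789). In the libraries labelled *Pax1-/-Pax9-/-* *Foxa1* was at 6.25 to 6.74, below the mutant and within the WT range (step -1.49, adjusted p = 0.000389), and *Vwa5b2* at 4.84 to 5.59 (step -1.28, adjusted p = 0.00965). *Etv1* was lowest at that point, with 5.79 to 6.00 against 6.78 to 6.89 in *Pax1-/-* of chip 2 and 6.03 to 6.63 in *Pax1-/-Pax9-/-*, and its last step did not pass the test (0.37, adjusted p = 0.885; 0.18 without B1, adjusted p = 0.975). *Col2a1* lay between 10.12 and 10.43 in *Pax1-/-Pax9+/-* and fell to between 8.75 and 9.16 in those libraries (-1.23, adjusted p = 0.000389), and so did *Sox5* (-0.92, adjusted p = 0.00773) and *Wwp2* (-1.09, adjusted p = 0.0349). *Acan* moved by -1.40 there without passing (adjusted p = 0.109; -1.42 without B1, adjusted p = 0.173), although its *Pax1-/-Pax9-/-* arrays, at 5.43 to 5.72, were all below the mutant's. On chip 2 *Pax1-/-* already lay above WT in 13 of the 15 named rises and below WT in 10 of the 15 named falls. The same WT arrays had a part in choosing these genes. From all *Pax1-/-* replicates to *Pax1-/-Pax9+/-* the rises moved by 0.08 to 1.55 and the falls by -1.36 to -0.10. These genes were also chosen for extreme values in the same *Pax1-/-Pax9+/-* arrays. The choice itself favours a move toward that genotype and a return from it in *Pax1-/-Pax9-/-*. Across the 15 named rises *Pax1-/-Pax9-/-* exceeded *Pax1-/-Pax9+/-* in 5, or 3 without B1, and across the 15 named falls it was lower in 6, or 8 without B1. Of those 30 genes, 4 passed the test at the last step, *Vwa5b2*, *Foxa1*, *Klhl14* and *4930426D05Rik*, all lower in *Pax1-/-Pax9-/-*. Without the library labelled *Pax1-/-Pax9-/-* B1, the last steps of these 4 genes were -1.13, -1.57, -1.96 and -2.71, those of *Col2a1*, *Sox5* and *Wwp2* were -1.28, -0.87 and -1.19, and all 7 still passed, with adjusted p from 0.00184 to 0.0475.

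**Figure D5:**
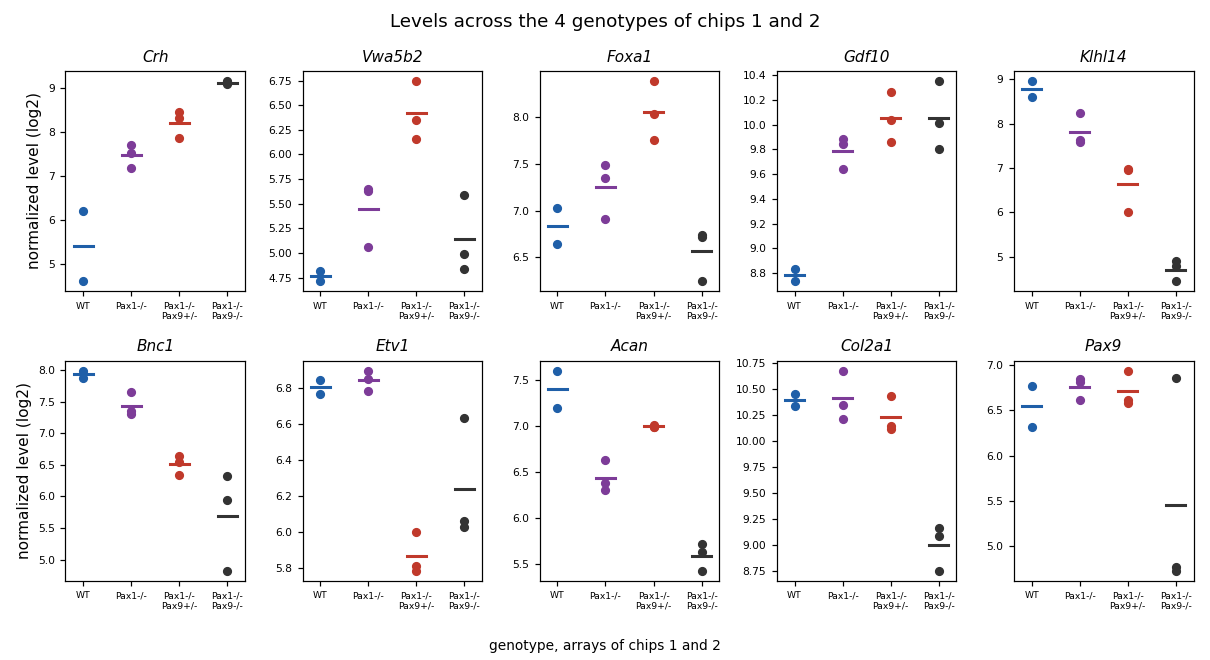
Each panel is a gene, with the normalized log2 level on its own y axis and WT, Pax1-/-, Pax1-/-Pax9+/- and Pax1-/-Pax9-/- on the x axis; points are arrays and bars means, WT and Pax1-/- from chip 2 and the other genotypes from chip 1. At the last step *Klhl14*, *Foxa1*, *Vwa5b2* and *Col2a1* passed the test, all lower in the libraries labelled Pax1-/-Pax9-/-, while *Crh* (0.92, adjusted p = 0.545) and *Bnc1* (-0.82, adjusted p = 0.330) did not.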

How the data were processed

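RNA of sorted cells was hybridised to Illumina MouseWG-6 BeadChips. The authors extracted probe intensities with BeadStudio, with background subtraction and without normalization, and deposited these intensity values with a detection p-value for each probe and array, which are the values used here. They also deposited log2 values that were quantile normalized in GeneSpring GX, and these served as an alternative.

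From the deposited intensities, normexp correction from the detection p-values (offset 16) and quantile normalization over all 28 arrays were run in limma 3.58.1 under R 4.3.3. Of 45281 probes, 34885 carry 1 gene symbol, 18 several and 10378 none. Probes with a detection p under 0.05 in at least 3 arrays were kept (27688), and those with 1 gene symbol (22486) were averaged to 13373 genes. Arrays of 1 genotype and replicate number were averaged, giving 21 EGFP(+) replicates of 5 genotypes, and an alternative kept the *Pax1-/-* B3 arrays of chips 2 and 3, which differ in *Xist*, as 2 samples. A linear model with empirical Bayes moderation was fitted over these, and calls needed a change of at least 1.5-fold and a two-sided p under 0.05 after Benjamini-Hochberg adjustment over all genes. A second fit used the 11 EGFP(+) arrays of chips 1 and 2, each as its own sample. The number of arrays limits the precision. The script was tested on simulated data.

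The genes named are *Pax1* and *Pax9*, the 15 rises and 15 falls with the largest sizes among called genes that did not overlap with WT and kept their sign against chip 2 (ranked by the smaller of both sizes), up to 4 called members per list with the smallest adjusted p, genes that the study's text names, and defining markers. Further genes called under both chip treatments were named after their values were seen. The members, lists and rules were chosen with earlier results of these data known. Group labels came from the sample records. Replicate numbers 2 and 3 occur in both groups, but the deviations of equal numbers correlated at 0.03 and 0.03, so they were not treated as pairs. The genes per list are symbols of the array annotation.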

Additional observations from a re-analysis of the deposited data

Results flagged for a closer look

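Among the 5 WT replicates of each of 89 genes, 5 had a value far from the nearest other one, about what chance gives at 1 in 20. *Npy2r* was highest in WT B5 (5.56, next 4.96, gap ratio 0.780), *Rspo2* also in B5 (6.85, next 6.54, gap ratio 0.766), and *AY074887* in B7 (6.15, next 5.55, gap ratio 0.782). *Ndufb7* was lowest in B7 (6.71, next 7.81, gap ratio 0.718), and so was *Cbx2* (7.00, next 7.56, gap ratio 0.893).

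Probes with no single gene symbol stayed outside the gene tables. Of 5202 such probes kept, 314 differed between *Pax1-/-Pax9+/-* and WT by the same rule, 220 higher and 94 lower, and they were not named.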

How the results depend on the processing

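The 636 calls against all WT replicates fell to 407 with signals floored at 1, to 311 with each array centred on its median, to 292 in the authors' log2 values and to 407 without the filter on dim probes; the floor gave 122 higher and 285 lower, and median centring 101 and 210. They were 367 (177 higher, 190 lower) with the *Pax1-/-* B3 arrays as 2 samples, chosen after seeing the data, 187 with each array as its own sample, 151 without the WT B5 array of chip 4, 19 with the chip as a random block, 21 with the chip series as a block, 1 on chips 1 and 2 alone, and 1823 with the WT arrays of chips 3 to 5 alone as control. With WT and *Pax1-/-Pax9+/-* alone in the fit there were 4, with *Pax1-/-Pax9-/-* added 75, and at a fold of 2 there were 171. The methods' one-way test gave 0 after adjustment and 597 before it. Leaving out 1 replicate gave 195 to 1320 calls, the lowest without mutant B3 and the highest without WT B7, with 324 and 244 without mutant B1 and B2 and 344, 293 and 310 without WT B2, B3 and B4. A fit with the replicate number as a block called 1228, of which 593 were among the 636 with the same sign.

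On chips 1 and 2 the 1 call became 2 with floored signals, 4 with median centring, 5 in the authors' values, 3 with trend and robust settings, 2 when normalized on those chips alone, 0 with the stricter detection filter and 0 with both groups fitted alone (limma; 1223 at an unadjusted p under 0.05). Leaving out 1 array gave 0 to 8, the highest without WT B5. The causes were not tested.

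Of 79 called genes named, 60 kept the call with the *Pax1-/-* B3 arrays as 2 samples, 14 kept the call with the random chip block, 19 with the series block and 79 with the WT arrays of chips 3 to 5 alone. Signs turned for *Sfrp5* with the series block (-0.026), for *Igf2* (0.031), *Crebbp* (0.057) and *Lamb1* (0.067) on chips 1 and 2 alone, for *Acan* with floored signals (-0.040), the series block (-0.20) and chips 1 and 2 (-0.40), and for *Sox9* with those chip settings (-0.24 and -0.47). *Pax9* turned with median centring (-0.18), chips 3 to 5 alone (-0.023) and the replicate block (-0.062), and leaving out 1 replicate gave -0.063 to 0.174, with -0.024 without mutant B1 and the lowest without WT B2. Signal over background limits genes near undetected levels.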
